A study of Homo sapiens with 6 samples.

Results

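The folate cycle carries one-carbon units on tetrahydrofolate in parallel in the cytosol and in the mitochondria. To describe how both branches responded at the mRNA level when SHMT1 was targeted by shRNA, 9 enzymes were chosen by gene symbol, 3 cytosolic (SHMT1, MTHFD1 and TYMS) and 6 mitochondrial (SHMT2, MTHFD1L, MTHFD2, MTHFD2L, ALDH1L2 and MTFMT), and every array probe annotated to them was taken. Of the 9 genes, 8 had a probe, among 20045 genes with a symbol on the array, and MTHFD2L had none in the annotation used here. The 8 genes had 11 probes, of which 10 were tested with 22991 probes in all, and these tested probes held 12857 genes.

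Expression was measured with Illumina HumanHT-12 V4 BeadChips in PEO4, an established cell line from high-grade serous ovarian cancer. The 6 arrays formed 3 groups of 2, cells with SHMT1 shRNA F12, cells with SHMT1 shRNA F11 and cells with a non-silencing (NS) control shRNA, as the labels call it. Per the study's methods, all cells had been infected with lentivirus and selected on puromycin, which enriches for shRNA-carrying cells but does not make a clone, and per the labels all groups were grown in RPMI with fetal bovine serum. The identifiers of the shRNAs are in a supplementary table not used here, so where F11 and F12 bind the SHMT1 transcript was not examined. The labels number 2 replicates a group without saying that they are separate cultures, and the general statement on biological replicates in the methods gives a number other than that of these arrays, so each p-value reflects the spread between these arrays alone, which may be technical.

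In both compartments serine hydroxymethyltransferase moves a carbon from serine to tetrahydrofolate. In the mitochondria this carbon is usually oxidised to formate, which leaves for the cytosol, and there it is built into purines and thymidylate or used to remake methionine. The mitochondrial branch also supplies the formyl group of the initiator tRNA and yields NADPH. Proliferating cancer cells commonly rely on the mitochondrial branch for their one-carbon units, and several of its enzymes are known targets of the stress-responsive transcription factor ATF4.

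The sequences upstream of the start sites are shown for 3 enzymes, because each window holds a match to the motif of a factor (WT1, ATF4 or E2F1) whose own array values are given further on. RefSeq promoter windows on GRCh38.p14 were matched by symbol for 6 of the 9 enzymes, and the 250 bases before the start were searched on both strands. SHMT1 lies on chromosome 17 (chr17:18327873-18363550, minus strand), and the window chr17:18363551-18363800, outside the gene, holds in capitals a match to the WT1 and EGR motif GCGNGGGNG, 70 to 62 bases before the start. The window is shown because the study examined WT1 as a regulator of SHMT1.
SHMT1: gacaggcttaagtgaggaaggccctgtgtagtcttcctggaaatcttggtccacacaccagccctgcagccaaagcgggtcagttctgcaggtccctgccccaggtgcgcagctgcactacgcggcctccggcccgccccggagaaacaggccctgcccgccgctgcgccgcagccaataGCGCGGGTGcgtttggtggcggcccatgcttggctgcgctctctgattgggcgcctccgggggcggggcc
MTHFD1L (chr6:150865702-151101887, plus strand) has more than 1 annotated start. The window of the start described here, chr6:150866236-150866485, lies within the outer limits of the gene. It holds in capitals a match to the ATF4 element TGATGNAA, 129 to 122 bases before that start. The same element lies 90 to 83 bases before the start of the window that begins at 150866197. The window that begins at 150866083 holds no match to it.
MTHFD1L: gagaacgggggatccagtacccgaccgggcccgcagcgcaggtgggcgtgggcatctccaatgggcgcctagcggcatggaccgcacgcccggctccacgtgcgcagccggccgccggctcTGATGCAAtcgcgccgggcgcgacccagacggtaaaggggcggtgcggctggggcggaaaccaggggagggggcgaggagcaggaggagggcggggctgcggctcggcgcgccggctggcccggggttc
TYMS (chr18:657653-673578, plus strand) has in chr18:657403-657652, outside the gene, a match to the E2F motif TTTNNCGC on the opposite strand, 39 to 32 bases before the start, shown in capitals.
TYMS: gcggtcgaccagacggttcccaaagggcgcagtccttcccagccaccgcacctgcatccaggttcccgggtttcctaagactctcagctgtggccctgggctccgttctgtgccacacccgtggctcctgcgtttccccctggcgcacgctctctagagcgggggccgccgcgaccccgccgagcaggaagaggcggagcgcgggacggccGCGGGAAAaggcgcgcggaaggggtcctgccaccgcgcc
A match of this kind is a description of the letters and not a binding site. Of 35116 promoter windows of this length, 17% held the WT1 and EGR motif, 3.14% the ATF4 element and 5.92% the E2F motif.

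SHMT1, the targeted cytosolic enzyme, was lower with both shRNAs at its brightest probe, and the difference from NS passed the test for F11 but not for F12. At probe ILMN_1811933 the quantile-normalized intensity, on a linear scale that includes background light, was 434 and 442 with F12, 291 and 342 with F11, and 542 and 544 with NS. No 2 groups overlapped, and both SHMT1 shRNAs lay below NS as they did for 7.29% of tested genes. The means were 438 ± 5.04 with F12, 316 ± 36.2 with F11 and 543 ± 1.51 with NS (SD, n = 2 each), so that intensity stood at 80.6% of NS with F12 and 58.3% with F11. The log2 fold change was -0.31 with F12 (95% interval -0.50 to -0.12, limma adjusted p = 0.214) and -0.78 with F11 (-0.97 to -0.59, limma adjusted p = 0.00534). The F11 call rests on both NS arrays, since the limma adjusted p was 0.0542 and 0.0585 when the one or the other was left out.

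Averaged over both shRNAs, SHMT1 fell, with a log2 fold change of -0.55 (95% interval -0.71 to -0.38, limma adjusted p = 0.0262), and 27 of 12857 genes had a more negative value. The call was lost without either NS array (limma adjusted p = 0.290 and 0.247), without either F12 array (0.180 and 0.172), and when the 4 SHMT1 shRNA arrays were fitted as 1 group (0.739).

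The dimmer SHMT1 probes showed less. ILMN_1743784, annotated to the same transcript as the brightest probe (NM_004169), read 119 and 117 with F12, 99.5 and 100.4 with F11, and 116 and 126 with NS. The F11 arrays were the lowest at this probe, with a log2 fold change of -0.28 against NS (limma adjusted p = 0.0713), whereas F12 overlapped NS (-0.04, limma adjusted p = 0.885). ILMN_2402463, annotated to another SHMT1 transcript (NM_148918), read 102 and 99.8 with F12, 110 and 92.6 with F11, and 106 and 101 with NS, a range in which all groups overlapped. Both dimmer probes lay close to the background limit of 91.6, the intensity that a probe had to exceed on at least 2 arrays to be tested, and the plot of the SHMT1 probes shows them beside that limit.

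**Figure D1:**
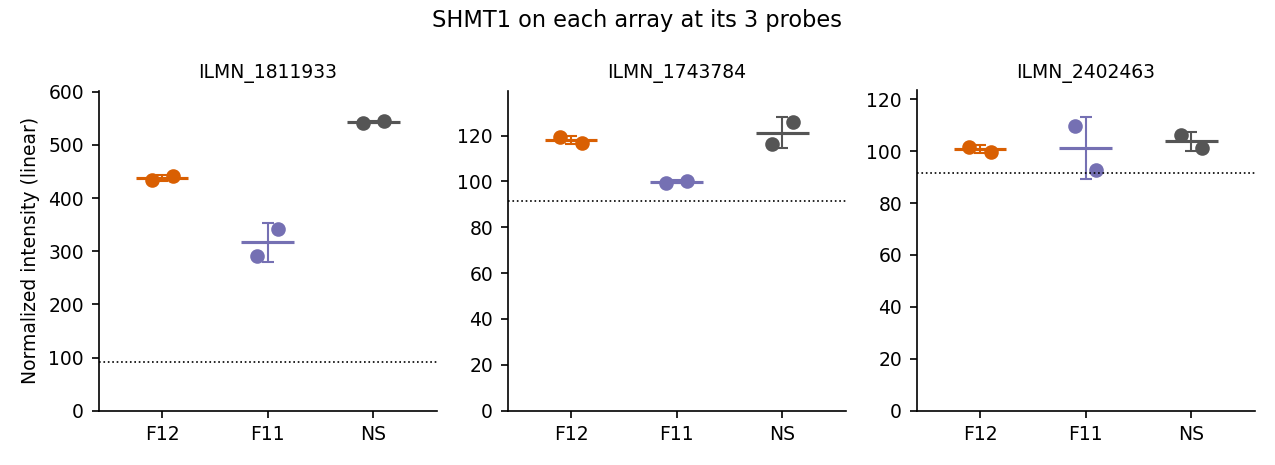
Normalized intensity (linear scale, each axis from 0) of the 3 SHMT1 probes on each array, in cells with shRNA F12, F11 and NS. Points are arrays, horizontal lines are means, error bars are SD of 2 arrays, and the dotted line is the background limit of 91.6. At ILMN_1811933 the F11 arrays read 291 and 342 and the NS arrays 542 and 544, while the other probes stayed near the dotted line in every group.

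Of the 8 measured enzymes, SHMT1 alone passed the test in any comparison, as fitted without a replicate block (a block with the F12 numbers crossed, chosen after seeing the data, called 2 enzymes with F11 and 2 between F12 and F11). It was called lower in the averaged comparison, where 0.677% of all tested genes were called and 0.451% were called lower, and lower with F11, where 3.8% were called and 1.88% were called lower. It was also called higher with F12 than with F11, where 8.18% were called and 3.83% were called higher. No enzyme was called with F12 against NS, a comparison in which limma called 0.91% of genes in either direction and 15.2% had an unadjusted p under 0.05, among the enzymes 1, SHMT1. With F11, 4 enzymes had an unadjusted p under 0.05 (SHMT1, MTHFD1, SHMT2 and MTHFD1L), against 20.9% of all genes. In the average 2 enzymes did (SHMT1 and MTHFD1), against 14.1%, and between F12 and F11 2 did (SHMT1 and MTHFD2), against 26.5%. F12, F11 and their average are all set against the same 2 NS arrays, so these comparisons are not independent.

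MTHFD1, the trifunctional cytosolic enzyme that interconverts the one-carbon forms of tetrahydrofolate and takes up formate, read 254 and 234 with F12, 240 and 277 with F11, and 213 and 225 with NS. All 4 SHMT1 shRNA arrays lay above both NS arrays, as they did for 8.35% of tested genes. The log2 fold change was 0.16 with F12 (95% interval -0.04 to 0.36, limma adjusted p = 0.553) and 0.24 with F11 (0.04 to 0.44, limma unadjusted p = 0.0259, adjusted p = 0.240). Averaged over both it was 0.20 (0.03 to 0.37, limma adjusted p = 0.420), which did not pass the threshold.

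TYMS, thymidylate synthase, which uses the one-carbon unit that serine hydroxymethyltransferase makes to convert dUMP into dTMP, read 864 and 803 with F12, 808 and 886 with F11, and 838 and 852 with NS. Both NS arrays lay inside the range of each SHMT1 shRNA, so no group stood apart. The averaged log2 fold change was -0.01, with an interval of -0.15 to 0.13 (limma adjusted p = 0.978), and the value was -0.02 with F12 and 0.00 with F11.

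Among the mitochondrial enzymes, SHMT2, the counterpart of SHMT1 that starts the mitochondrial branch from serine, read 1689 and 1826 with F12, 1936 and 1989 with F11, and 1832 and 1598 with NS. The F11 arrays were the highest and the F12 arrays lay within the NS range. The log2 fold change was 0.04 with F12 (-0.15 to 0.23, limma adjusted p = 0.914) and 0.20 with F11 (0.01 to 0.39, limma unadjusted p = 0.0420, adjusted p = 0.301).

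MTHFD1L, which releases formate from 10-formyltetrahydrofolate at the end of the mitochondrial branch, read 658 and 743 with F12, 758 and 788 with F11, and 664 and 668 with NS. Again the F11 arrays were the highest, and the F12 arrays lay on either side of NS. The log2 fold change was 0.07 with F12 (limma adjusted p = 0.792) and 0.22 with F11 (0.05 to 0.38, limma unadjusted p = 0.0188, adjusted p = 0.203).

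MTHFD2, the mitochondrial dehydrogenase and cyclohydrolase of the step between SHMT2 and MTHFD1L, read 512 and 613 with F12, 726 and 676 with F11, and 669 and 573 with NS. F11 lay above both NS arrays and F12 overlapped NS. The log2 fold change was -0.14 with F12 (-0.40 to 0.11, limma adjusted p = 0.691) and 0.18 with F11 (-0.07 to 0.43, limma adjusted p = 0.526), and this enzyme had the widest intervals of the 8.

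MTFMT, which formylates the methionyl initiator tRNA for mitochondrial translation, read 212 and 236 with F12, 262 and 231 with F11, and 235 and 248 with NS at its brighter probe. The groups overlapped, with log2 fold changes of -0.11 with F12 (limma adjusted p = 0.695) and 0.03 with F11 (limma adjusted p = 0.934). Its second probe, ILMN_2175831, lay between 81.8 and 90.4 on all arrays, below the background limit on each, and was not tested.

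ALDH1L2, the mitochondrial 10-formyltetrahydrofolate dehydrogenase that yields NADPH, read 87.0 and 88.3 with F12, 87.8 and 91.6 with F11, and 93.2 and 94.9 with NS. Every F12 and F11 array read lower than either NS array, as for 7.29% of tested genes. The values lay at the background limit, which 3 of the 6 arrays exceeded, 2 of them NS, so the gene passed the filter mainly through the group in which it was highest. Its log2 fold changes of -0.10 with F12 and -0.07 with F11 (limma adjusted p = 0.567 and 0.665) are therefore differences between values near background.

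**Figure D2:**
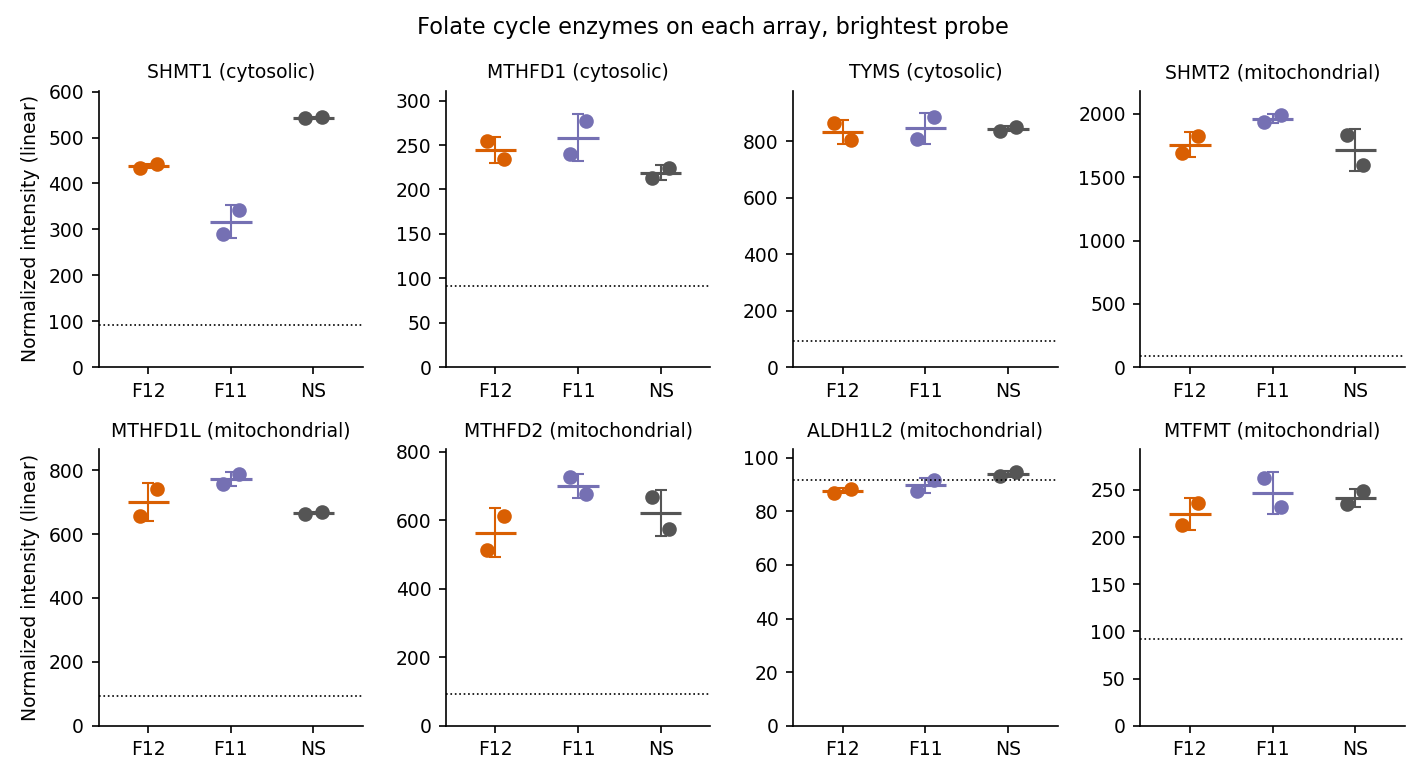
Normalized intensity (linear scale, each axis from 0) of the 8 measured folate enzymes at the brightest tested probe of each, in cells with shRNA F12, F11 and NS. Points are arrays, horizontal lines are means, error bars are SD of 2 arrays, and the dotted line is the background limit of 91.6. SHMT1 separates all 3 groups, the F11 arrays are the highest for SHMT2 (1936 and 1989), MTHFD1L (758 and 788) and MTHFD2 (726 and 676), and ALDH1L2 lies at the limit.

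The branches were then compared through their medians, as a description without a test. With F12 the median log2 fold change was -0.02 over the 3 cytosolic enzymes (range -0.31 to 0.16) and -0.10 over the 5 mitochondrial ones (-0.14 to 0.07). With F11 it was 0.00 over the cytosolic enzymes (-0.78 to 0.24) and 0.18 over the mitochondrial ones (-0.07 to 0.22). The cytosolic minus mitochondrial difference was therefore 0.08 with F12 and -0.18 with F11. With SHMT1 left out of the cytosolic group it was 0.17 and -0.06. The median over 3 cytosolic enzymes was the TYMS value with both shRNAs, so the size of the SHMT1 fall did not enter it. Without SHMT1 only MTHFD1 and TYMS remained. The mitochondrial median was the MTHFD2 value with F11 and the ALDH1L2 value with F12. ALDH1L2 lay near background and passed the filter mainly through NS, so the F12 difference rests on a weakly measured value. Its F12 value stood between those of MTFMT (-0.11) and SHMT2 (0.04). The stricter filter, above the limit on all 6 arrays, left ALDH1L2 out, and the branch difference under it is not given here. Of the 5 mitochondrial enzymes, 2 lay above 0 with F12 and 4 with F11.

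These differences were of the order of the spread between arrays. Within groups, the difference between the branch medians of single arrays had an SD of 0.113 with SHMT1 and 0.127 without it. Over all tested genes the median log2 fold change was 0.00 with F12, with 90% of genes between -0.22 and 0.21, and 0.01 with F11, with 90% between -0.24 and 0.25. All folate enzymes other than SHMT1 lay inside these ranges, as the distribution plot shows. In the average 90% of genes lay between -0.18 and 0.17, and MTHFD1 (0.20) lay above this range. Between F12 and F11 90% lay between -0.31 and 0.28, and MTHFD2 (-0.32) lay below this range. Neither MTHFD1 nor MTHFD2 was called there in the fit without a block. The 4 enzymes whose F11 arrays both exceeded NS (SHMT2, MTHFD1L, MTHFD2 and MTHFD1) compare with 24.4% of all genes in that position, and the 1 with F12 (MTHFD1) with 23.9%.

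**Figure D3:**
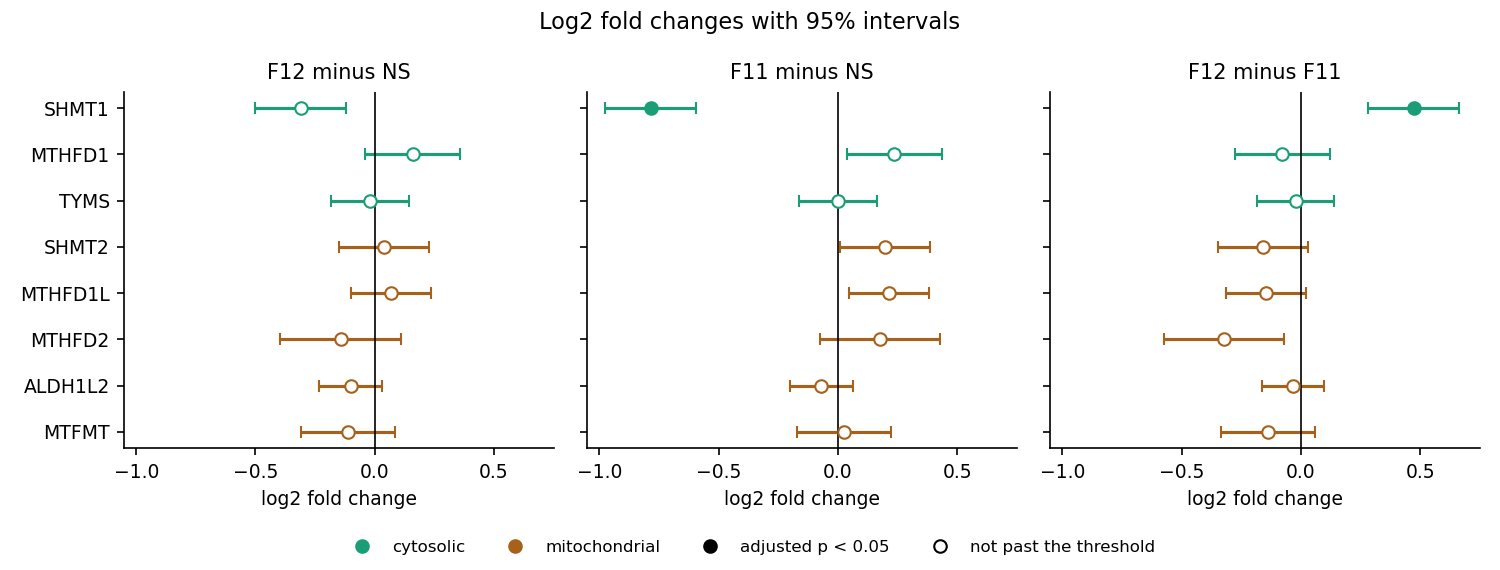
Log2 fold changes of the 8 folate enzymes with their 95% intervals, for F12 minus NS, F11 minus NS and F12 minus F11, with cytosolic enzymes in green and mitochondrial ones in brown. Filled points passed a limma adjusted p of 0.05. SHMT1 is filled for F11 (-0.78) and for F12 minus F11 (0.47), and every other point is open.

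**Figure D4:**
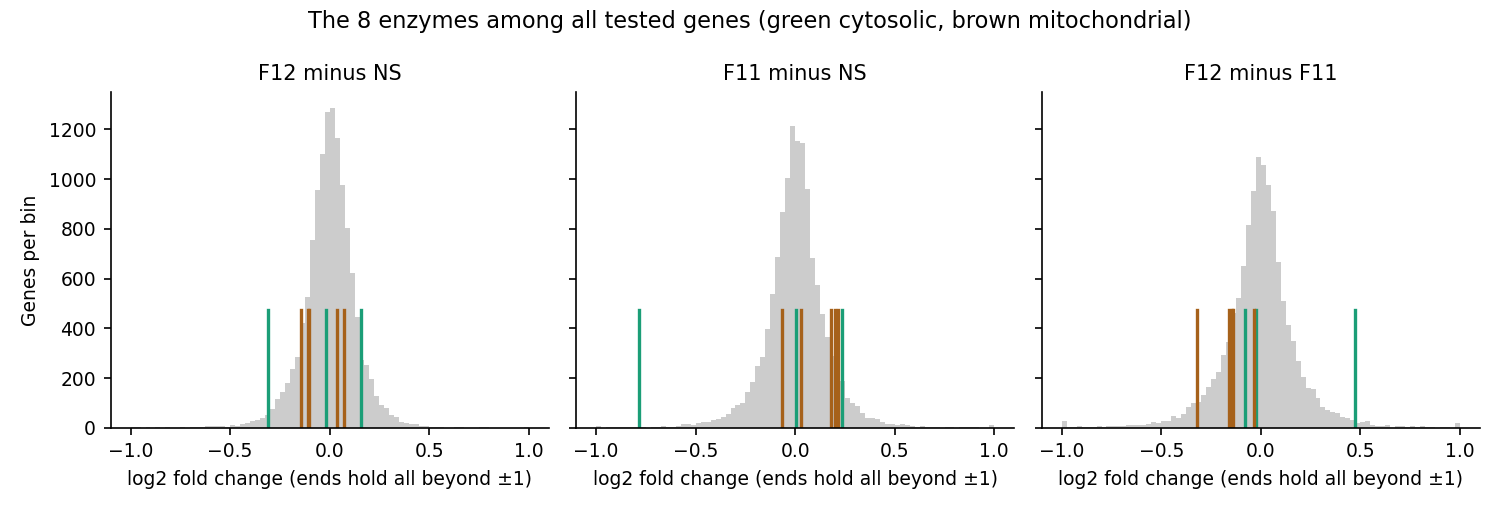
Distribution of log2 fold changes over 12857 tested genes (grey, genes per bin, the outermost bins holding all values beyond the axis) with the 8 folate enzymes as vertical lines, cytosolic in green and mitochondrial in brown. SHMT1 stands in the lower tail with F11 (-0.78) and F12 (-0.31), and there the other enzymes lie among the bulk of genes. For F12 minus F11, SHMT1 (0.47) stands in the upper tail. MTHFD2 (-0.32) stands in the lower tail of that panel, with 4.64% of genes below it.

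The SHMT1 shRNAs differed from each other in SHMT1 itself. F12 left more SHMT1 signal than F11, with a difference of 0.47 on the log2 scale (95% interval 0.28 to 0.66, limma adjusted p = 0.0197) at the brightest probe, and both F12 arrays lay above both F11 arrays, as for 24.5% of all genes. The call was lost without either F12 array (limma adjusted p = 0.141 and 0.157). At the dimmer probe of the same transcript the difference was 0.24 (limma adjusted p = 0.0703).

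The mitochondrial enzymes had differences of the opposite sign between the shRNAs, none of which passed the test. All 5 were lower with F12 than with F11, with log2 differences of -0.32 for MTHFD2 (95% interval -0.57 to -0.07, limma unadjusted p = 0.0195, adjusted p = 0.148), -0.16 for SHMT2 (-0.35 to 0.03), -0.15 for MTHFD1L (-0.31 to 0.02), -0.14 for MTFMT and -0.03 for ALDH1L2. Of all tested genes, 50.8% were lower with F12 than with F11. For SHMT2, MTHFD1L and MTHFD2 both F12 arrays lay below both F11 arrays, as for 26.9% of all genes. MTHFD1 and TYMS differed by -0.08 and -0.02 (limma adjusted p = 0.702 and 0.917), with overlapping arrays.

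The neighbouring steps of the pathway were described from lists of genes. Of 20 other folate pathway genes (purine formyltransferases, the glycine cleavage system, folate transporters and polyglutamylation enzymes), 18 had a probe and 15 were tested. Their median log2 fold change was 0.01 with F12 and 0.00 with F11, and 1 gene of the 15 was called, with F11 and between F12 and F11, where 3.8% and 8.18% of all tested genes were. GLDC, the decarboxylase of the mitochondrial glycine cleavage system, which feeds carbon from glycine into the same pool, read 210 and 239 with F12, 385 and 419 with F11, and 248 and 266 with NS. It rose with F11 (log2 fold change 0.64, limma adjusted p = 0.0107). The F12 cells had less of it than the F11 cells (-0.84, limma adjusted p = 0.00219). Without the one or the other NS array the limma adjusted p of the F11 rise was 0.0922 and 0.0659, whereas the difference between the shRNAs passed whichever array was left out.

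Of 17 genes of serine synthesis and known ATF4 targets, 15 were tested, with median log2 fold changes of 0.10 with F12 and 0.05 with F11. None was called with F12, against 0.91% of all tested genes, and 2 of 15 were called with F11, in opposite directions, against 3.8%. In the average 1 of 15 was called, against 0.677%, and between F12 and F11 2 of 15 were, against 8.18%. PSAT1, the aminotransferase of serine synthesis, read 666 and 622 with F12, 417 and 406 with F11, and 607 and 602 with NS. It fell with F11 (log2 fold change -0.56, limma adjusted p = 0.00591) and was higher with F12 than with F11 (0.65, limma adjusted p = 0.00179).

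PYCR1, which makes proline in the mitochondria, lay above NS with both SHMT1 shRNAs, as did 8.35% of all tested genes. It read 293 and 261 with F12, 320 and 344 with F11, and 214 and 225 with NS. It rose with F11 (0.60, limma adjusted p = 0.0106) and in the average (0.47, limma adjusted p = 0.0398, but 0.0900 with the replicate number as a block and 0.104 to 0.405 on leaving out either NS or either F12 array). Both F11 calls in this list were lost without either NS array (limma adjusted p = 0.0597 and 0.0605 for PSAT1, 0.0916 and 0.0687 for PYCR1).

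ATF4 read 3486 and 3605 with F12, 3082 and 2915 with F11, and 3516 and 3116 with NS at its brightest probe. The difference between the shRNAs there did not pass (0.24, limma adjusted p = 0.118). At a dimmer probe (ILMN_2358457) it read 305 and 319 with F12 and 248 and 257 with F11, with NS between them (282 on both arrays). There the shRNAs differed (log2 difference 0.30, limma adjusted p = 0.0259). This call was lost on leaving out either NS array, either F12 array or the first F11 array, with limma adjusted p between 0.0566 and 0.198. MTHFD1L, whose upstream window shown above holds the ATF4 element, read 658 and 743 with F12, 758 and 788 with F11, and 664 and 668 with NS.

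Thymidylate metabolism, mitochondrial translation and reference genes were described in the same way. None of 18 tested genes of thymidylate metabolism and S phase (of 20) passed in any comparison. Their medians were 0.08 with F12 and 0.10 with F11. Of all tested genes, 0.91% were called with F12, 3.8% with F11, 0.677% in the average and 8.18% between F12 and F11. E2F1 was the only E2F gene on this list, and the E2F motif lies in the TYMS window. It read 106 and 122 with F12, 130 and 106 with F11, and 122 and 114 with NS, not far above the background limit of 91.6. None of the 5 genes of mitochondrial translation initiation, the process MTFMT serves, passed either, against the same shares. Their medians were -0.09 with F12 and 0.00 with F11. WT1, whose motif lies in the SHMT1 window, read 1213 and 1257 with F12, 1083 and 1204 with F11, and 965 and 1143 with NS, with no call (limma adjusted p = 0.415 with F12 and 0.638 with F11). The 8 tested reference genes had medians of 0.12 with F12 and 0.03 with F11. Of these 8, SDHA was called higher with F11 (0.36, limma adjusted p = 0.0274), where 3.8% of all tested genes were called. This call was lost whichever array was left out, with log2 fold changes of 0.32 to 0.40.

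The genes whose pattern over the 6 arrays was most like that of SHMT1 were sought by the root mean square difference in log2 intensity, each array taken relative to the mean of NS. Of 12856 other genes, the closest were PTGER2, a prostaglandin E2 receptor, at 0.0875, TCEAL2 at 0.0992, and BDNF, a neurotrophin, at 0.101. PTGER2, for example, read 148 and 163 with F12, 107 and 107 with F11, and 184 and 184 with NS.

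As a check of the labelled cell type, all 6 epithelial and all 5 Mullerian markers were above background, PAX8, WT1 and MSLN among them, and none of the 4 endothelial markers passed the filter. Of the 6 leukocyte markers CD14 (139 to 232 over the 6 arrays) and CD68 (295 to 462) passed, whereas PTPRC, CD3E, LYZ and MS4A1 did not. Of the 6 fibroblast markers COL1A1, COL1A2, COL3A1 and DCN passed, at 79.3 to 115 over the arrays and so close to the limit of 91.6, whereas LUM and PDGFRB did not. Summed intensities were 549 to 568 with the SHMT1 shRNAs and 545 to 546 with NS for the fibroblast markers, and 776 to 983 with the SHMT1 shRNAs and 853 to 961 with NS for the leukocyte markers. Within the epithelial list KRT7 and KRT8 fell with F11, and KRT7, KRT8 and CDH1 were higher with F12 than with F11, the comparison in which SHMT1 was also higher. These are 2 and 3 of 6 markers, against 3.8% and 8.18% of all tested genes called. KRT7, 1 of 6 markers, also fell in the average (-0.42, limma adjusted p = 0.0262), where 0.677% of all tested genes were called. In the Mullerian list MUC16, 1 of 5 markers, fell with F12 (-0.55, limma adjusted p = 0.0198). CD14, 1 of 2 tested leukocyte markers, fell with F12 too (-0.59, limma adjusted p = 0.0357). With F12, 0.91% of all tested genes were called. MUC16 was also called for F12 minus F11 (-0.66, limma adjusted p = 0.00239), against 8.18% of all tested genes. Unlike the calls of the pathway genes above, these marker calls were not followed through the alternatives or with arrays left out. The part of these markers in the folate enzyme values was not tested. Log2 intensities correlated across probes at 0.994 to 0.997 between replicate arrays and 0.988 to 0.995 between arrays of different groups.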

How the data were processed

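Gene expression was measured in 6 arrays (3 groups of 2), and groups come from the labels. According to the methods the authors used GenomeStudio, then quantile normalization with lumi (version not stated). The intensity they deposited for each probe and array is on a linear scale (47321 probes, 70.9 to 15895, medians 89.9 on every array), with no sign of background subtraction in the values. Background light lowers fold changes of dim probes. The 12 columns of another deposited table, of non-normalized signals, match no sample label and were not used. The number of arrays limits the precision.

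Intensities were log2-transformed without a pseudocount. The background was estimated from all values as their mode, 85.5, and a probe entered the test where at least 2 of 6 arrays exceeded its 95th percentile, 91.6 (44.9% of all values did). Probes were named from the platform annotation (30112 with 1 symbol, 8 with several, 17201 with none). Tested probes without a symbol (5744) entered the fit unnamed. limma 3.58.1 (R 4.3.3) was fitted over all 6 arrays with lmFit and eBayes, with 3 residual and 4.28 prior degrees of freedom. Two-sided p-values were adjusted over the tested probes by the Benjamini-Hochberg method (threshold 0.05). A gene takes its value from the brightest of its tested probes on average, and is called if any of them passes. The fit was tested on simulated data.

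The enzymes and gene lists were chosen with earlier results of these data known. Named genes are the enzymes with all their probes, up to 3 called genes of each list by adjusted p, and the 3 genes most like each enzyme called at its brightest probe. WT1, E2F1 and the cell type markers are named beside them. Alternatives were no filter and a stricter one, the replicate number as a block, normexp background correction (offset 16), a variance trend with robust estimation, only the groups compared, the SHMT1 shRNA arrays as 1 group, the mean over probes, unadjusted p, and leaving out each array.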

Additional observations from a re-analysis of the deposited data

Results flagged for a closer look

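The effect of the SHMT1 shRNAs on SHMT1 itself differed between them. The test of the difference, F12 minus F11, gave 0.47 on the log2 scale (limma adjusted p = 0.0197), with 434 and 442 intensity units in F12 cells and 291 and 342 in F11 cells, so that both F12 arrays lay above both F11 arrays. Groups of 2 arrays are too small to be searched for single arrays that stand apart.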

How the results depend on the processing

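No other folate enzyme passed the threshold in 360 refitted values over the averaged, F11, F12 and F12 minus F11 comparisons. The crossed block (below) is not among them. SHMT1 kept its direction throughout. In the averaged comparison its value was -0.55 with the 4 SHMT1 shRNA arrays as 1 group (limma adjusted p = 0.739) and -0.25 as the mean over its probes (0.0676), neither past the threshold. Leaving out 1 array at a time gave SHMT1 values of -0.61 to -0.49 in the average, -0.90 to -0.67 with F11, -0.32 to -0.30 with F12 and 0.36 to 0.59 for F12 minus F11, and 0 to 1 called enzymes in the average, with F11 and for F12 minus F11. At an unadjusted p under 0.05, 2 enzymes passed in the average, 4 with F11, 1 with F12 and 2 for F12 minus F11, and 0 passed in the average with the SHMT1 shRNA arrays as 1 group.

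Leaving out 1 array gave a cytosolic minus mitochondrial difference of -0.149 to 0.065 in the average, -0.243 to -0.053 with F11 and -0.060 to 0.145 with F12. Without SHMT1 it was -0.060 to 0.170 in the average, -0.144 to 0.078 with F11 and 0.027 to 0.239 with F12. Leaving out 1 array also changed the sign of small values that were never called. These were TYMS (-0.042 to 0.024 in the average, -0.065 to 0.068 with F11, -0.073 to 0.033 with F12, -0.088 to 0.044 for F12 minus F11), MTFMT (-0.087 to 0.0031 in the average, -0.064 to 0.117 with F11), MTHFD2 (-0.094 to 0.129 in the average), SHMT2 (-0.061 to 0.136 with F12), MTHFD1L (-0.018 to 0.157 with F12) and MTHFD1 (-0.182 to 0.027 for F12 minus F11).

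The labels number the arrays 1 and 2 in each group but do not say that a number marks a shared culture or day. The methods name no block either, so the numbers were not taken as pairs. The deviations of same-numbered arrays correlated at 0.455 (NS and F11), -0.291 (NS and F12) and -0.310 (F11 and F12). These values cannot decide whether arrays were paired, since pairs numbered differently in F12 could give the same signs. With the replicate number as a block the called enzymes stayed at 1 in the average, 1 with F11, 0 with F12 and 1 for F12 minus F11, and the SHMT1 values were those without it, -0.55, -0.78, -0.31 and 0.47 (limma adjusted p = 0.0447 in the average, 0.0113 with F11 and 0.0271 for F12 minus F11). With the F12 numbers crossed, an alternative chosen after seeing the data, 2 enzymes were called with F11 (MTHFD1, higher, in addition to SHMT1) and 2 for F12 minus F11 (MTHFD2, lower, in addition to SHMT1). The calls of ATF4 (F12 minus F11) and SDHA (F11) were also lost with normexp correction (limma adjusted p = 0.0834 and 0.123), a variance trend (0.0622 and 0.0649) and only the groups compared (0.0566 and 0.0839), that of SDHA with the replicate block (0.0517), and that of PYCR1 in the average with the SHMT1 shRNA arrays as 1 group (0.486). Signals near the background limit, as for ALDH1L2 and the dimmer SHMT1 probes, limit what these arrays can show.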
